A study of Mus musculus with 8 samples.

Results

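The naive pluripotency transcription factors were followed through the differentiation of mouse embryonic stem cells toward cardiomyocytes, as 10 of the 55487 genes in the deposited tables. They were taken by gene name and are *Nanog*, *Esrrb*, *Klf2*, *Klf4*, *Klf5*, *Tfcp2l1*, *Tbx3*, *Nr0b1*, *Prdm14* and *Zfp42*. Each name matched a single protein-coding gene, and all 10 passed the filter on low counts, so every member was tested among 20071 genes. *Nr0b1* passed through its counts in undifferentiated cells alone, since it had at most 4 reads in any later library.

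Naive pluripotency is the state of the cells of the preimplantation epiblast and of mouse embryonic stem cells kept with the cytokine LIF. A general pair of factors, *Pou5f1* and *Sox2*, is shared with later pluripotent cells, whereas the naive factors form an additional layer that is known to reinforce it. LIF acts through Stat3 on *Klf4* and *Tfcp2l1*, relief of repression by Tcf7l1 acts on *Esrrb*, and several of the factors are known to stand in for each other in holding the state. When the culture leaves this state the layer is dismantled, and some of its members are used again in other tissues.

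J1 cells, a male line of strain 129S4/SvJae, were collected undifferentiated at day 0 (ESC), at day 4 (mesoderm, MES), at day 6 (cardiac progenitor, CP) and at day 10 (cardiomyocyte, CM), with 2 biological replicates per stage and 8 libraries of ribosome-depleted total RNA. ESC were grown on gelatin with serum replacement and LIF and are labelled as untreated. MES, CP and CM came from embryoid bodies, which are cell aggregates formed in hanging drops and plated in serum medium with ascorbic acid and, in the methods, no mention of LIF. The 3 later stages are labelled as treated with ascorbic acid, so time, medium, LIF, aggregation and ascorbic acid cannot be told apart in any comparison with ESC. All samples derive from a single line, and contracting patches were collected without a sort. RNA was thus measured in mixed tissue, in which fewer cells that express a gene and less RNA per cell cannot be told apart.

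Total counts ranged from 18046063 to 19728777 per library. Genes that define the labelled stages were compared with the labels. *T* and *Mesp1*, which mark the primitive streak and nascent mesoderm, were at 102 to 116 and at 18.5 to 34.0 TPM in MES, and *Mesp1* was listed at 0 in both CM libraries. *Isl1*, of cardiac progenitors, was at 18.8 and 23.8 TPM in CP and overlapped MES (15.0 and 21.9 TPM), so it did not set these stages apart, and neither did *Gata4*, at 88.6 and 99.9 TPM in CP and 106 and 99.9 TPM in MES. *Nkx2-5*, an early marker of cardiac differentiation, did not overlap between them. It was at 3.78 and 3.52 TPM in MES, 8.40 and 10.4 TPM in CP, and 2.24 and 14.8 TPM in CM. *Tnnt2* and *Myh6*, of the cardiac sarcomere, were at 26.3 and 46.0 TPM and at 66.7 and 199 TPM in the CM libraries, and 30.3 to 39.0 and 80.5 to 120 TPM in CP. CM was therefore not the only stage with cardiac muscle RNA, and its libraries also held 10601 to 16604 TPM of 13 smooth muscle and fibroblast markers. The CM replicates differed more than those of other stages, with a mean chi-square per gene of 33.2 compared with 3.71 to 6.40. As the spread of a gene was estimated over all stages together, the p-values against CM may be too low.

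Of the members, 7 have a promoter window in RefSeq (GRCm38.p6), which reaches from 250 bases before to 50 bases after an annotated start. The windows of *Nanog*, *Zfp42*, *Tfcp2l1* and *Klf4* are shown because these genes carry the main differences in timing described below: a loss over 2 steps, a loss of the most abundant member, and a later rise of a pair. Capitals mark matches to motifs searched on both strands, namely the octamer TTTGCAT bound by Pou5f1, the Sox motif ACAATG, the Klf box GGGNGTGG and the TATA box TATAAA. The *Nanog* window lies at chr6:122707239-122707538 on the plus strand, that of *Zfp42* at chr8:43306960-43307259 on the minus strand, that of *Tfcp2l1* at chr1:118627695-118627994 on the plus strand and that of *Klf4* at chr4:55532426-55532725 on the minus strand.
Nanog: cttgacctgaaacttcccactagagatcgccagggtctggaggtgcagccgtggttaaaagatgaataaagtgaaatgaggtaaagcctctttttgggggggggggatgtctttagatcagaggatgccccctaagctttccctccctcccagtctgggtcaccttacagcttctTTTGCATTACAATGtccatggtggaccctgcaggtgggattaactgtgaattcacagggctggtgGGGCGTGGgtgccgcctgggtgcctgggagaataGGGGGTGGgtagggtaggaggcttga
Zfp42: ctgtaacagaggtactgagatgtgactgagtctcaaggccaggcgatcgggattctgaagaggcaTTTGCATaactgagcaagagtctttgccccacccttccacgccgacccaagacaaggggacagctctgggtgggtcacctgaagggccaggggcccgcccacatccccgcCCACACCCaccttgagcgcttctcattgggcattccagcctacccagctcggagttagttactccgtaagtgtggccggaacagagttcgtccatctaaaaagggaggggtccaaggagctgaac
Tfcp2l1: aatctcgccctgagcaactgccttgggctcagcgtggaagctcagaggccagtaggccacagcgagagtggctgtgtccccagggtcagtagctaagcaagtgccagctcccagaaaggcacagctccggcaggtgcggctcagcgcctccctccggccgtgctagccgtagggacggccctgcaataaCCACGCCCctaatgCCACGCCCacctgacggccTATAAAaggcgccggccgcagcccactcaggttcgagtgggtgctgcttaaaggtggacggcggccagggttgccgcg
Klf4: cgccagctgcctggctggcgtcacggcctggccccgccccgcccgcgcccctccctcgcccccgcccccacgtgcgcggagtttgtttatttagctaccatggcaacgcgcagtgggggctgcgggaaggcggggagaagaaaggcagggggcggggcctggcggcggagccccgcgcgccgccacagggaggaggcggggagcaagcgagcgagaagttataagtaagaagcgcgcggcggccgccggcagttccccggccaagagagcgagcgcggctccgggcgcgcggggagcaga

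In *Nanog*, the octamer and the Sox motif lie side by side as the composite TTTGCATNACAATG. It begins at position -75 from the start of the window shown. This composite occurs in 2 of the 32851 RefSeq windows (0.00609%), and both are overlapping windows of *Nanog*. In the window not shown it begins at position -151 from another annotated start. The octamer alone is in 4.63% of all windows and, among the members, in *Nanog* and *Zfp42*. The Sox motif is in 12.6% of all windows and, among the members, in *Nanog* and *Esrrb*. A Klf box is in 17.6% of all windows and in those of *Nanog*, *Zfp42* and *Tfcp2l1*. In *Tfcp2l1* it occurs 2 times just before a TATA box that begins at position -28. The TATA box is in 13.6% of all windows and, among the members, in *Tfcp2l1* and *Nr0b1*. The *Klf4* window has none of these matches and is rich in G and C, at 74.3% compared with a median of 52.7% over all windows. The Esrrb motif AAGGTCA, present in 4.72% of windows, was not found in any member's window. A match describes letters in a window and is not a measured binding site.

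In ESC the members differed widely in level, measured as TPM, which is RNA per length of the gene and per library. *Zfp42*, also known as Rex1, a zinc-finger factor and classical marker of the naive state, had the highest level, with 631 and 610 TPM, and took 30.05% of the summed TPM of the 10 genes. *Nanog*, *Esrrb*, *Klf2*, *Klf4*, *Klf5* and *Nr0b1* followed with stage means of 268 down to 149 TPM. *Tfcp2l1* (97.5 TPM) and *Tbx3* (78.5 TPM) were lower, and *Prdm14* was the lowest at 18.1 and 19.9 TPM. The summed level of the 10 went from 2063 and 2065 TPM in ESC to 229 to 252 TPM in MES and 100 to 116 TPM in CP, and stood at 127 to 144 TPM in CM. The order was rebuilt over time: *Tbx3* made up 63.8% of the sum in MES and 46.1% in CP, and *Klf4* led in CM with 30.5%, whereas *Zfp42* held 3.01% there.

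**Figure D1:**
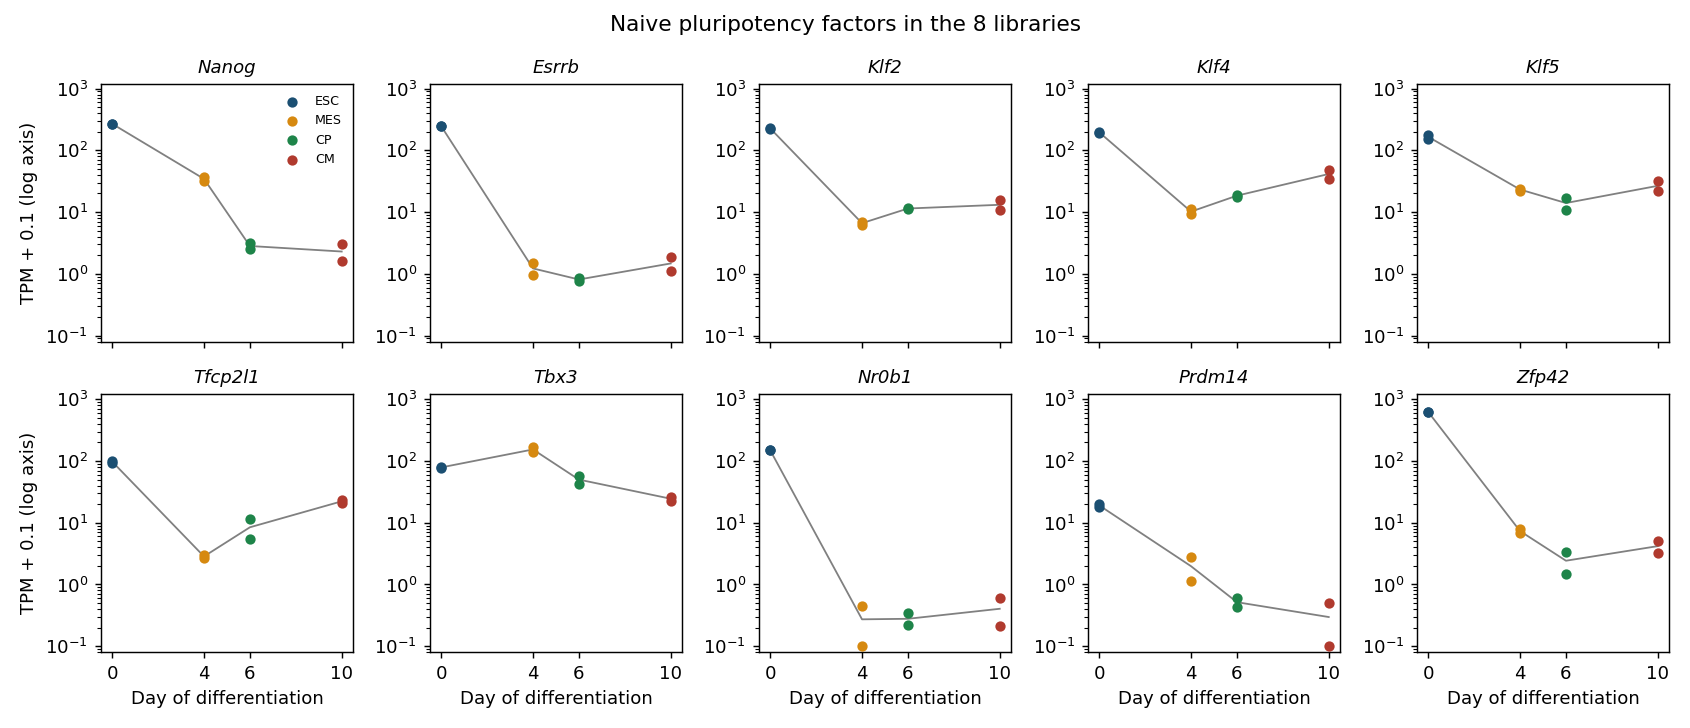
TPM plus 0.1 of each naive factor (vertical log axis) against the day of differentiation, with 1 point per library and a line through the stage means. From ESC to MES 9 of the 10 genes drop and *Tbx3* rises from 78.5 to 154 TPM, and *Klf4* and *Tfcp2l1* climb again to 41.2 and 22.1 TPM in CM.

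Between ESC and MES, 9 of the 10 factors fell and none rose past the threshold. A gene was called when edgeR's quasi-likelihood test gave an adjusted p under 0.05 together with a change of more than 2-fold in either direction, and 16.0% of all genes tested were called lower and 19.4% higher in this comparison. The median log2 fold change was -4.91 over the members and 0 over all genes. At an unadjusted p under 0.05, edgeR gave 1 member as higher (*Tbx3*), and DESeq2 called 0 higher. In every case but *Tbx3* both MES libraries lay below both ESC libraries. Folds come from TMM-scaled counts and differ somewhat from ratios of TPM, which are not scaled by TMM. The members are described in turn, grouped by the depth of this loss together with their course at the later stages. Depth alone did not separate these groups.

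**Figure D2:**
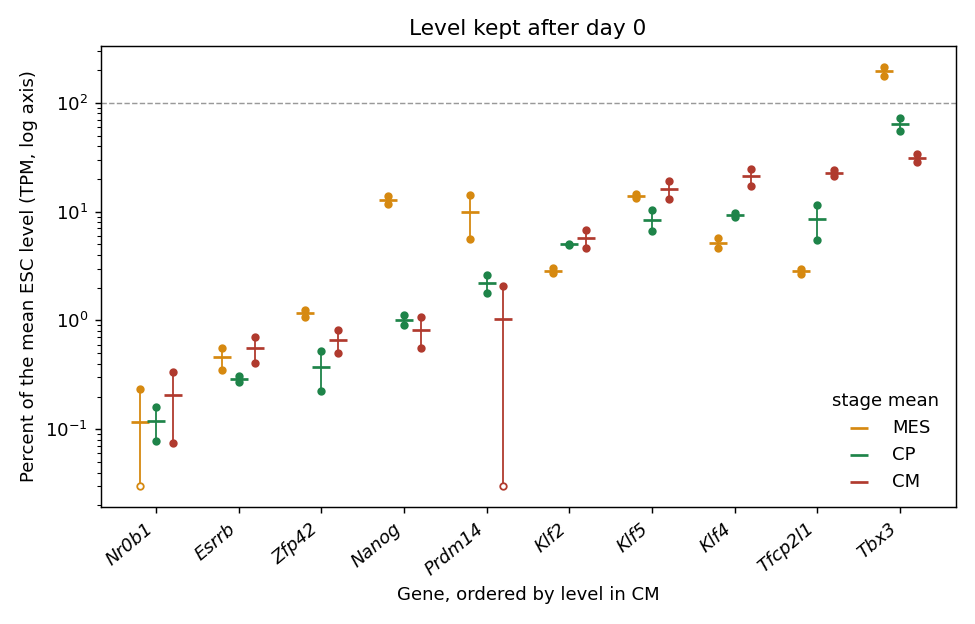
Level in MES, CP and CM as a percent of the mean ESC level (TPM, log axis), with genes ordered by their level in CM. Points are libraries, bars are stage means, and open points at the lower edge are libraries with no read. *Nr0b1*, *Esrrb*, *Zfp42* and *Nanog* kept less than 1% of their ESC level in CM (0.205%, 0.559%, 0.658% and 0.819%), whereas *Klf5*, *Klf4*, *Tfcp2l1* and *Tbx3* were at 16.05% to 31.0% there, *Klf4* and *Tfcp2l1* after 5.15% and 2.82% in MES.

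*Esrrb*, *Nr0b1* and *Zfp42* were lost almost entirely by day 4. *Esrrb*, an orphan nuclear receptor on chromosome 12 (86361117 to 86521628, GRCm38), was at 246 and 245 TPM at day 0, 0.866 and 1.38 at day 4, 0.667 and 0.751 at day 6, and 1.74 and 1.00 at day 10. It was thus high only in ESC, and its MES and CM libraries overlapped. It fell 252-fold between ESC and MES (log2 fold change -7.98 ± 0.22 SE, adjusted p = 1.2e-08). Its differences from MES to CP (-0.82, adjusted p = 0.0942) and from CP to CM (0.90, adjusted p = 0.0782) did not pass the test. Without CM replicate 2 the latter difference would be called higher (1.30, adjusted p = 0.00263).

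*Nr0b1*, also called Dax1, is an atypical nuclear receptor without the usual DNA-binding domain that is known to interact with Pou5f1 and lies on the X chromosome (86191764 to 86195947). It had 1493 and 1450 reads at day 0, 0 and 3 at day 4, 1 and 2 at day 6, and 1 and 4 at day 10. It was therefore at the limit of detection at all later stages. The ratio of summed counts per total was 937 between ESC and MES, with an exact 95% interval of 320 to 4546 that covers counting error only. For CP it was 976 (334 to 4737) and for CM 588 (252 to 1813). These intervals overlap, and differences among the 3 later stages were not detectable at this depth.

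*Zfp42* lies on chromosome 8 (43295063 to 43306980) and was at 7.80 and 6.65 TPM at day 4, 3.27 and 1.38 at day 6, and 5.05 and 3.10 at day 10. It fell 99.2-fold between ESC and MES (-6.63 ± 0.24 SE, adjusted p = 3.69e-08) and a further 3.43-fold between MES and CP (-1.78 ± 0.35, adjusted p = 0.00358). The CP and CM libraries overlapped (0.75, adjusted p = 0.196), although without CM replicate 2 CM would be called higher (1.12, adjusted p = 0.0304). Its lower level in CM than in MES (-1.03, adjusted p = 0.0189) sat at the fold threshold, and the call was lost with DESeq2 (-1.0002, adjusted p = 0.0863), with each other scaling, in a fit of only these stages, and without MES replicate 1 or CM replicate 2. A processed pseudogene of similar sequence, *Zfp42-ps1*, had 439 and 473 reads in ESC and 0 to 5 later. How reads were divided between it and *Zfp42* is not known, so the level of *Zfp42* is uncertain to that extent.

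*Nanog* and *Prdm14* left in steps. *Nanog*, a homeodomain factor at the centre of the network (chromosome 6, 122707489 to 122714633), was at 267 and 269 TPM at day 0, 31.5 and 37.2 at day 4, 3.03 and 2.41 at day 6, and 2.89 and 1.503 at day 10. MES was thus an intermediate stage with 12.8% of the ESC level, and CP and CM overlapped near 1%. *Nanog* fell 9.04-fold from ESC to MES (-3.18 ± 0.16 SE, adjusted p = 3.05e-07) and 14.0-fold over the next step (-3.81 ± 0.22, adjusted p = 6.6e-06). Its drop over the second step was the steepest of the 10 members. Between CP and CM it did not differ past the threshold (-0.35, adjusted p = 0.463), but the value depended on the library, since it was -1.02 (adjusted p = 0.0378, called lower) without CM replicate 1 and 0.09 without CM replicate 2.

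*Prdm14*, a PR-domain protein known to repress Fgf signalling and *de novo* DNA methyltransferases (chromosome 1, 13113457 to 13127163), had 258 and 274 reads at day 0, 33 and 13 at day 4, 6 and 4 at day 6, and 5 and 0 at day 10. It declined from stage to stage in the mean, and CP and CM overlapped. Between ESC and MES it fell 11.6-fold (-3.54 ± 0.47 SE, adjusted p = 0.000158). Its fall from MES to CP (-2.30 ± 0.70, adjusted p = 0.0275) rested on few reads: the ratio of summed counts was 4.79, with an exact 95% interval of 2.39 to 10.7. The call was lost, with adjusted p of 0.0546 to 0.245, when either ESC library, MES replicate 1 or either CP library was left out. The fall from MES to CM (-3.34 ± 0.79, adjusted p = 0.00552) was lost without MES replicate 1 (-2.46, adjusted p = 0.0551).

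In the second step, from MES to CP, 4 members fell (*Nanog*, *Prdm14*, *Zfp42* and *Tbx3*) and 1 rose (*Tfcp2l1*), compared with 4.65% and 10.8% of all genes tested that were called lower and higher. In the third step, from CP to CM, 1 fell (*Tbx3*) and 2 rose (*Klf4* and *Tfcp2l1*), beside 2.65% and 8.17% of all genes. Adjacent steps share the libraries of the stage between them, so their values are not independent. The median log2 fold change over the members was -0.85 and 0.68 in these steps, and 0 and -0.0037 over all genes. All 10 were lower than in ESC at CP and at CM, where 20.6% and 21.8% of all genes tested were called lower and 26.1% and 29.8% higher. *Tbx3* alone was close to the threshold at CP.

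**Figure D3:**
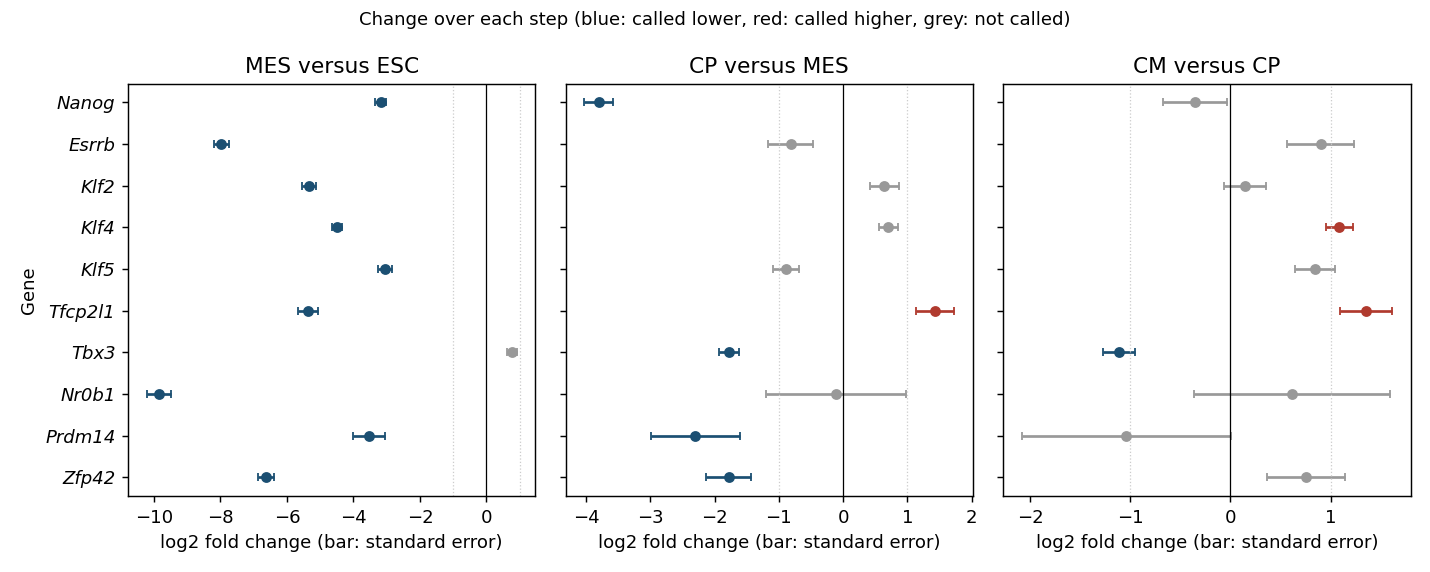
Fitted log2 fold change of each factor over the 3 steps of differentiation, with bars of 1 standard error and dotted lines at a fold of 2 in either direction (the horizontal axes differ). Blue points are called lower, red points higher and grey points not called. The first step moved 9 genes down, the second moved *Tfcp2l1* up by 1.44, and the third moved *Klf4* and *Tfcp2l1* up by 1.09 and 1.35.

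*Tbx3* was the exception to the early loss. It encodes a T-box factor that is known to act in the naive network and also in the primitive endoderm, the limb and the cardiac conduction system, and it lies on chromosome 5 (119670669 to 119684724). The gene was at 78.2 and 78.8 TPM at day 0, 168 and 140 at day 4, 56.9 and 42.8 at day 6, and 22.3 and 26.4 at day 10. No pair of stages overlapped, and MES was the highest. The rise to MES (1.69-fold, 0.76 ± 0.15 SE, adjusted p = 0.00171) passed the p threshold but not the fold threshold. *Tbx3* then fell 3.43-fold to CP (-1.78 ± 0.15, adjusted p = 4.6e-05) and 2.16-fold to CM (-1.11 ± 0.16, adjusted p = 0.00112), and this last call was lost without CP replicate 1 (-0.88). Against ESC it was 2.03-fold lower in CP (-1.02), a call that was lost with library totals as the scaling (-0.87), with no filter, in a fit of only these stages, and without ESC replicate 1, MES replicate 1 or CP replicate 2. In CM it was 4.38-fold lower than in ESC (-2.13 ± 0.16, adjusted p = 1.51e-06). An antisense transcript, *Tbx3os1*, overlaps the gene with 8 to 63 reads per library, but counting was strand-specific.

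*Klf4* and *Tfcp2l1* fell with the others and then regained part of their level. *Klf4*, a zinc-finger factor downstream of LIF and Stat3 that is also expressed in epithelia and in vascular cells, lies on chromosome 4 (55527143 to 55532466). It was at 197 and 194 TPM at day 0, 9.07 and 11.1 at day 4, 17.6 and 19.0 at day 6, and 33.8 and 48.6 at day 10. The stages did not overlap, and the gene was lowest in MES. From ESC to MES it fell 22.5-fold (-4.49 ± 0.14 SE, adjusted p = 2.04e-08). The rise over the second step was 1.63-fold (0.71 ± 0.14, adjusted p = 0.00425), under the fold threshold, and over the third step it rose 2.12-fold (1.09 ± 0.13, adjusted p = 0.000545). Without CM replicate 2 the rise was 0.90 on the log2 scale (adjusted p = 8.92e-05), so that call depends on this library through the fold threshold. CM was 3.46-fold above MES (1.79 ± 0.14, adjusted p = 7.17e-06) and still 6.49-fold below ESC (-2.70 ± 0.13, adjusted p = 8.45e-08).

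*Tfcp2l1*, a grainyhead-related factor that is another target of Stat3 and is also known from the collecting ducts of the kidney, lies on chromosome 1 (118627945 to 118685168). It was at 93.4 and 102 TPM at day 0, 2.89 and 2.61 at day 4, 5.35 and 11.3 at day 6, and 23.5 and 20.7 at day 10. Again the stages did not overlap and MES was the lowest. It fell 41.0-fold from ESC to MES (-5.36 ± 0.30 SE, adjusted p = 5.12e-07). CP was 2.70-fold above MES (1.44 ± 0.30, adjusted p = 0.00463), and CM in turn was 2.55-fold above CP (1.35 ± 0.26, adjusted p = 0.00507). The CP replicates lay apart, and each of these steps depended on them. The first was not called without CP replicate 2 (0.83, adjusted p = 0.0176), and the second was not called without CP replicate 1 (0.92, adjusted p = 0.0145). Over both steps, CM was 6.90-fold above MES (2.79 ± 0.29, adjusted p = 3.81e-05), a call that held under every alternative tried, and it was 5.94-fold below ESC (-2.57 ± 0.25).

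Between MES and CM, these were the 2 members that rose, beside 19.1% of all genes tested, and *Nanog*, *Tbx3*, *Prdm14* and *Zfp42* were the 4 that fell, beside 10.1%. The rule that defined the set already named *Klf4* and *Tfcp2l1* as examples of a regain, and the same data had been seen before, so their rise is given as a description of size and not as independent evidence. In CM they stood at 21.1% and 22.7% of their ESC levels. Relative to the other mRNAs at 1 TPM or more, *Klf4* was above 28.6% of them in MES and above 64.1% in CM, compared with 94.3% in ESC. For *Tfcp2l1* these values were 10.8%, 44.7% and 86.2%.

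*Klf2* and *Klf5* fell without a called regain. *Klf2*, which is also a flow-responsive gene of endothelium, lies on chromosome 8 (72319033 to 72321656). It was at 229 and 223 TPM at day 0, 6.13 and 6.88 at day 4, 11.5 and 11.1 at day 6, and 15.4 and 10.6 at day 10. Both CP libraries were above both MES libraries, but the difference did not pass the test (1.56-fold, 0.64 ± 0.23 SE, adjusted p = 0.051), and CP and CM overlapped (0.15, adjusted p = 0.653). *Klf2* fell 40.2-fold between ESC and MES (-5.33 ± 0.21, adjusted p = 5.79e-08). CM was above MES by 0.79 on the log2 scale (adjusted p = 0.0136), under the fold threshold, and would be called without CM replicate 2 (1.10).

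*Klf5*, which is also known from epithelia and smooth muscle, lies on chromosome 14 (99298691 to 99315036). It was at 154 and 176 TPM at day 0, 23.9 and 22.2 at day 4, 16.9 and 10.9 at day 6, and 21.7 and 31.2 at day 10. Its fall to MES was the smallest of the 9 called, at 8.27-fold (-3.05 ± 0.20 SE, adjusted p = 1.29e-06). CP was the lowest stage, by 1.85-fold below MES (-0.88, adjusted p = 0.00761) and 1.79-fold below CM (0.84, adjusted p = 0.014). Neither passed the fold threshold, although both did without CP replicate 1 (-1.26 and 1.21). In CM its mean of 26.5 TPM was second among the members, above those of *Tbx3* and *Tfcp2l1*. MES and CM overlapped (-0.04, adjusted p = 0.872), and the sign of this difference changed with the scaling.

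The profiles were compared by the root mean square difference of centred log2 CPM over the 8 libraries, as a description. *Klf4* and *Tfcp2l1* were the closest pair (0.50), followed by *Esrrb* and *Zfp42* (0.64), *Esrrb* and *Nr0b1* (0.65), *Klf2* and *Klf4* (0.71), *Klf4* and *Klf5* (0.75), and *Nanog* and *Prdm14* (0.86). The farthest were *Nr0b1* and *Tbx3* (3.68). All members but *Tbx3* are highest in ESC, so most pairs share the fall after it. How much each stage adds to a distance was not measured. Distances to *Nr0b1* and *Prdm14* depend on the prior count of 2 added to their few reads.

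**Figure D4:**
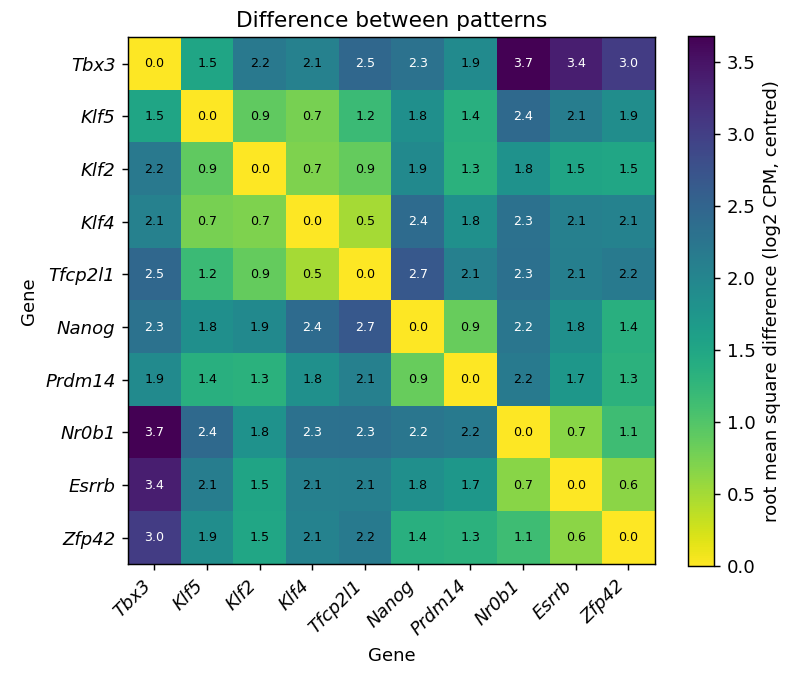
Root mean square difference between the profiles of each pair of factors (log2 CPM centred per gene, 8 libraries), with genes ordered by average-linkage clustering. Low values, in yellow and green, mark like profiles: *Klf4* with *Tfcp2l1* (0.50), *Esrrb* with *Zfp42* (0.64) and *Nanog* with *Prdm14* (0.86). *Tbx3* stands apart, at 1.51 or more from every other member.

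Among 15261 other protein-coding genes, the profile nearest to *Nanog* was that of *Pou5f1* (0.60), followed by *Zyg11a* (0.69). *Pou5f1* fell from 846 TPM in ESC to 72.8, 7.51 and 2.41 TPM, and kept 8.61% of its ESC level at day 4, beside 12.8% for *Nanog*. Nearest to *Klf4* were *Hap1* (0.18) and *Ephx2* (0.27), and nearest to *Tfcp2l1* were *Itpka* (0.24) and *Manba* (0.28), which encodes a lysosomal mannosidase and was at 85.7, 2.77, 7.45 and 19.7 TPM over the stages. For *Tbx3* they were *Tcf7* (0.17), a mediator of Wnt signalling at 58.2, 93.0, 37.4 and 16.6 TPM, and *Gcat* (0.24). *Esrrb* was closest to *Rpl39l* (0.17) and *Rpl10l* (0.33), which are autosomal relatives of ribosomal protein genes. Both had stage means of at most 0.505 TPM after ESC, so their distances also depend on the prior count. The genes nearest to *Zfp42* were *Rbmxl2* (0.29) and *Zfp988* (0.34), to *Klf5* *Gm12569* (0.15) and *Sema4a* (0.24), and to *Prdm14* *H1f6* (0.47) and *Zbbx* (0.54). The neighbours of *Nr0b1*, *Acsbg3* (0.28) and *Nlrp4f* (0.50), and of *Klf2*, *Zscan4d* (0.24) and *Gm14406* (0.24), had almost no reads after ESC. When genes were ranked by Pearson's r, these names changed except *Rpl39l*, *Acsbg3* and both neighbours of *Klf5*.

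Most other pluripotency genes were also lower by day 4. Of 15 genes of general pluripotency, 13 fell from ESC to MES in edgeR's test and none rose, with *Sall4* and *Lin28a* as the 2 not called (1 higher at an unadjusted p under 0.05, *Lin28a*, and 0 with DESeq2). Over all genes tested, 16.0% were called lower and 19.4% higher. *Pou5f1*, which encodes Oct4, was 13.5-fold lower in MES (-3.75 ± 0.24 SE, adjusted p = 1e-06) and *Sox2* 24.9-fold lower (-4.64 ± 0.22, adjusted p = 1.78e-07). From MES to CP 8 of the 15 fell, *Sall4* and *Lin28a* among them, and 2 rose (*Tdh* and *Spp1*). In that step 4.65% of all genes tested were called lower and 10.8% higher. From CP to CM, *Pou5f1*, *Sall4*, *Lin28a*, *Fgf4* and *Tdgf1* fell further, and *Dppa5a*, *Gdf3* and *Spp1* rose, beside 2.65% and 8.17% of all genes. *Dppa5a* was at 3849 and 3830 TPM at day 0, 6.51 and 4.89 at day 6, and 21.2 and 11.6 at day 10, so its rise of 2.77-fold ended far below the starting level. *Gdf3* rose 11.4-fold and was still 73.2-fold below ESC in CM. *Spp1* rose 20.6-fold and ended 1.95-fold below ESC, a difference under the fold threshold. *Sox2* did not differ between CP and CM past the threshold (-0.37, adjusted p = 0.308). *Klf4* and *Tfcp2l1* rose in the same step, in which *Pou5f1* fell (log2 fold change -1.68, adjusted p = 0.0144) and *Dppa5a*, *Gdf3* and *Spp1* rose. A link between these changes was not tested.

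The LIF pathway was measured through 10 genes, of which 5 fell and 1 rose from ESC to MES, beside 16.0% and 19.4% of all genes tested. *Socs3*, a feedback inhibitor induced by Stat3, was at 127 and 129 TPM at day 0, 15.4 and 14.1 at day 4, 36.1 and 23.3 at day 6, and 62.2 and 44.3 at day 10. It fell 10.01-fold to MES (-3.32 ± 0.26 SE, adjusted p = 4.17e-06). *Stat3* itself was at 49.5 and 51.1 TPM at day 0, 24.1 and 25.4 at day 4, 44.1 and 39.8 at day 6, and 79.4 and 71.5 at day 10. Both genes were thus lowest in MES, as were *Klf4*, *Tfcp2l1*, *Klf2* and, at the limit of detection, *Nr0b1*. A link between these genes was not tested. Not all of the 10 took this course. *Gbx2* was called lower than in MES both in CP (-1.34) and in CM (-2.61). *Pim1* was lower in CM than in MES (-0.47), under the fold threshold. Between MES and CM 3 of the 10 were called higher and 1 lower, beside 19.1% and 10.1% of all genes tested. *Stat3* fell 2.35-fold to MES, *Gbx2* fell 102-fold and *Pim1* 3.38-fold, *Pim3* fell 2.07-fold, and *Ptpn11* rose 2.13-fold, whereas *Lifr* (-0.02), *Il6st* (0.41), *Jak1* (0.57) and *Lif* (-0.30) were not called. From CP to CM none of the 10 was called in edgeR's test, beside 8.17% of all genes called higher and 2.65% lower. *Stat3* (0.78, adjusted p = 0.00148), *Socs3* (0.78, adjusted p = 0.0402) and *Lif* (0.95, adjusted p = 0.00964) passed the p threshold upward at folds of 1.72 to 1.93, and *Il6st*, the shared signal-transducing receptor subunit, passed it downward (-0.39, adjusted p = 0.0241). At an unadjusted p under 0.05 the former 3 were higher and 2 were lower (*Il6st* and *Pim1*), and DESeq2 called 0.

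Genes of the formative and primed epiblast, the state that follows the naive one, were mixed. From ESC to MES 3 of 11 rose (*Cdh2*, *Fgf5* and *Lef1*) and 4 fell (*Dnmt3a*, *Zic5*, *Pou3f1* and *Sox3*), beside 19.4% and 16.0% of all genes tested. *Fgf5*, the best known marker of this state, was at 1.51 and 2.68 TPM in ESC, 21.9 and 49.1 in MES, and 1.26 to 6.19 TPM later. It rose 14.5-fold to MES (3.86 ± 0.60 SE, adjusted p = 0.000406) and fell 10.1-fold to CP. *Otx2* was at 15.2 and 40.6 TPM in MES, on either side of its 28.6 and 31.1 TPM in ESC. From MES to CP 7 of the 11 fell and 1 rose (*Sox3*), beside 4.65% and 10.8% of all genes.

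The summed level of the other Klf genes moved far less than that of the naive members. *Klf2*, *Klf4* and *Klf5* together made up 46.4% to 47.1% of the summed TPM of 17 Klf genes at day 0, 5.96% to 6.12% at day 4, 6.38% to 7.03% at day 6, and 10.5% and 13.8% at day 10. The other 14 summed to 651 to 684 TPM in ESC and 563 to 617 TPM at the later stages. From ESC to MES 4 of the 13 tested rose and 3 fell, beside 19.4% and 16.0% of all genes. *Klf6* rose 2.48-fold (adjusted p = 3.94e-06), from 95.8 and 99.6 to 286 and 274 TPM, and *Klf7* rose 2.35-fold. *Klf9* fell 8.38-fold and *Klf11* fell 3.92-fold. *Klf3* was not called (-0.38), and was at 42.3 to 49.0 TPM in CP and CM. From CP to CM 1 of the 13 rose, *Klf9* by 2.07-fold (1.05 ± 0.24 SE, adjusted p = 0.0115), and 1 fell, the erythroid factor *Klf1*. Over all genes tested, 8.17% were called higher and 2.65% lower in this step.

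**Figure D5:**
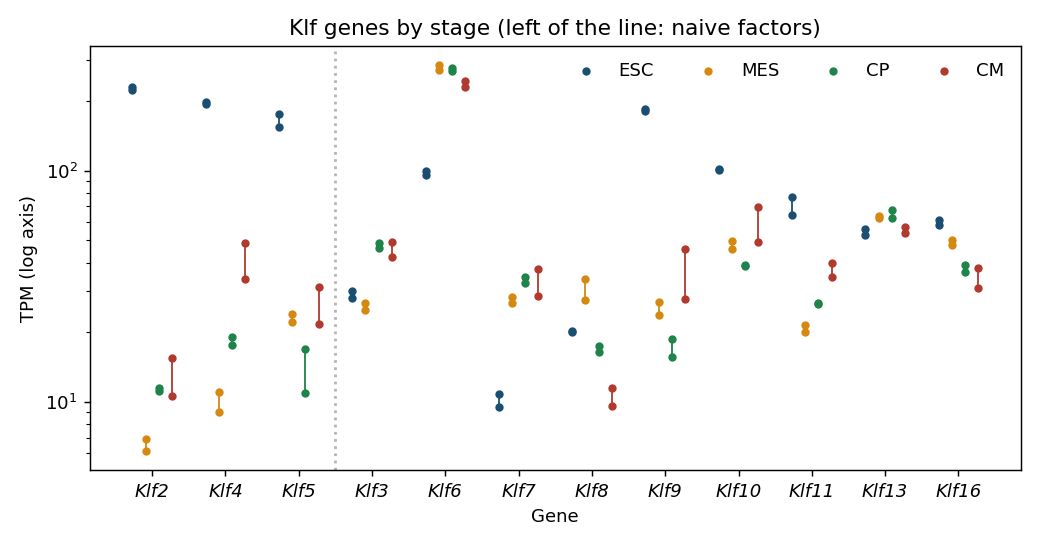
TPM (log axis) of the naive Klf factors, left of the dotted line, and of the other Klf genes that reached 25 TPM in some stage mean, right of it, with 1 point per library and colours for the stages. *Klf2*, *Klf4* and *Klf5* start at 154 to 229 TPM and lie at 6.13 to 23.9 TPM in MES, while *Klf6* rises to 286 and 274 TPM there.

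Relatives of the remaining members were followed in the same way, as 17 genes of which 15 were tested. From ESC to MES 6 rose and 4 fell, beside 19.4% and 16.0% of all genes. The T-box genes *Tbx20*, *Tbx5*, *Tbx2* and *Tbx4* all rose, *Tbx2* by 15.6-fold and *Tbx4* by 2.92-fold. The grainyhead genes *Grhl1*, *Grhl2* and *Grhl3*, which are relatives of *Tfcp2l1* known from epithelia, fell 7.76-fold, 2.77-fold and 5.69-fold. From CP to CM *Grhl1* and *Grhl3* rose 3.08-fold and 3.33-fold, as did *Prdm16* by 5.08-fold. No relative was called lower by edgeR in that step, with 5 lower at an unadjusted p under 0.05 and 0 called by DESeq2. Of all genes tested, 8.17% were called higher and 2.65% lower there.

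Markers of other cell types moved in the step in which *Klf4* and *Tfcp2l1* rose, and their part in the rise was not tested. Over all genes tested, 8.17% were called higher and 2.65% lower from CP to CM. Of 12 genes of simple epithelium, 5 rose from CP to CM and none fell, among them *Cldn3* (8.86-fold), *Epcam* (2.16-fold), *Cldn4* (4.06-fold) and *Elf3* (5.28-fold). The summed level of these 12 was 2829 to 3177 TPM in CP, 3286 to 3425 TPM in CM and 4223 to 4409 TPM in MES. Between MES and CM, *Cldn3* (3.08-fold) and *Cldn4* (2.07-fold) rose, *Krt8* fell 2.21-fold, and the median log2 fold change of the 12 was 0.097. None of the 12 was listed at 0 in any library. Of 14 immediate early genes, which respond to handling and to growth factors, 6 rose and none fell, among them *Egr1* (4.66-fold) and *Fos* (2.10-fold). Their sum was 459 to 466 TPM in CP, 696 to 873 TPM in CM and 848 to 895 TPM in ESC. Of 13 smooth muscle and fibroblast genes 6 rose and 2 fell, and their sum was 8818 to 10181 TPM in CP. Of 12 endothelial genes none rose and 8 fell, and their sum was 605 to 642 TPM in CP and 262 to 314 TPM in CM, with *Pecam1* 2.41-fold lower. Of 10 endoderm genes 3 rose and none fell, *Afp*, *Apoa1* and *Apoa2*, and their sum was 419 to 682 TPM in CP and 796 to 1067 TPM in CM. Where edgeR called none of these lists' genes in a direction in this step, an unadjusted p under 0.05 gave 1 (*Krt8*, lower) for epithelium and 0 for immediate early, endothelial and endoderm genes, and DESeq2 gave 0 for each.

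The CM libraries differed between each other in several members and in these markers. Replicate 1 was higher in *Nanog*, *Esrrb*, *Klf2*, *Tfcp2l1*, *Prdm14* and *Zfp42*, and replicate 2 was higher in *Klf4*, *Klf5*, *Tbx3* and *Nr0b1*. The 12 cardiac muscle genes summed to 644 TPM in replicate 1 and 1451 TPM in replicate 2, and the smooth muscle and fibroblast genes to 16604 and 10601 TPM. *Klf4* was higher in both CM libraries than in both CP libraries, and so was *Tfcp2l1*.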

How the data were processed

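The 8 libraries were strand-specific and read from both ends, 2 for each of ESC, MES, CP and CM. Per the labels and methods, the authors trimmed reads with Trim Galore 0.6.6, aligned them to GRCm38 with HISAT2 2.2.1 and counted them per Ensembl gene by strand with featureCounts 2.0.1, and compared stages with DESeq2 1.34.0. The deposited count values are whole reads per gene, and the deposited TPM values are counts per gene length scaled to the same sum in each library. TPM recomputed from the counts and lengths lay within 4.35e-06 of the deposited values.

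Members were taken by gene name. Stages were compared on the raw counts with edgeR 4.0.16 (R 4.3.3, limma 3.58.1), by its quasi-likelihood F-test with TMM scaling and its filter on low counts by stage, which kept 20071 genes. A single fit with 4 stage terms held every library, with a common dispersion of 0.0163. The Benjamini-Hochberg adjustment ran over all genes tested, and a call needed an adjusted p under 0.05 with a fold above 2 or under 0.5. Standard errors were derived from F, as the size of the log2 change over the root of F. Levels of different genes were compared only in TPM. Ratios of low counts carry exact binomial 95% intervals, which cover counting error only. The test was checked on simulated counts.

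Text names all 10 members, the 2 other protein-coding genes nearest in profile to each (prior count of 2), *Pou5f1*, *Sox2*, *Klf3*, *Klf6* and *Klf7*, and of the other lists mainly the called genes with the smallest adjusted p. *T*, *Mesp1*, *Isl1* and genes singled out beside a count were added after their values were seen. The lists cover general pluripotency, the LIF and Stat3 pathway, the formative epiblast, exit regulators, relatives of the members, immediate early genes, and markers of endothelium, smooth muscle and fibroblasts, cardiac muscle, simple epithelium, endoderm, germ cells, blood and neural cells. Members and lists were chosen with earlier results of these data known. Positions are from GENCODE M21 (GRCm38). Promoter windows are from RefSeq (GRCm38.p6), in which *Klf5*, *Tbx3* and *Prdm14* were not matched. DESeq2 1.42.0 and other scalings, filters, fits and left-out libraries were the alternatives. Tables and plots were made in Python 3.11.15 with pandas 2.3.3, numpy 2.4.6, matplotlib 3.10.9 and scipy 1.17.1.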

Additional observations from a re-analysis of the deposited data

How the results depend on the processing

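Of 6 counts of members called, those for MES lower than ESC (9) and CM lower than ESC (10) were the same under all alternatives that gave a value. Leaving out a library gave 3 to 4 for CP lower than MES, 9 to 10 for CP lower than ESC, 2 to 4 for CM lower than MES (2 without MES replicate 1) and 2 to 3 for CM higher than CP. The other alternatives gave 4 to 5, 9 to 10, 3 to 4 and 2 to 3. Over 60 pairs of gene and comparison, 1059 values kept direction and call, 23 lost the call, 11 gained it and 13 changed sign.

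None of the 13 values that changed sign was called. With a library left out, *Nr0b1* ranged from -1.004 to 3.67 for CP against MES, from -0.59 to 1.24 for CM against CP and from -0.70 to 4.28 for CM against MES. For CM against CP, *Nanog* ranged from -1.02 to 0.093 and *Klf2* from -0.26 to 0.46. For CM against MES, *Esrrb* ranged from -0.48 to 0.48 and *Klf5* from -0.23 to 0.11, with 0.028 under upper-quartile scaling and 0.10 with library totals. Apart from the fewer libraries, the cause was not tested.

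Over all genes, 2172 were called between CP and CM, 5104 with no fold threshold and 1276 without CP replicate 1, and 7101 between ESC and MES, 11793 with no fold threshold. Library totals shifted the median log2 fold change of CM against ESC by 0.22. Leaving out both CM libraries, chosen after seeing the data, changed no member call among the other stages. With the replicate number as a block, the 6 counts of members were 9, 4, 10, 10, 4 and 2, and 2149 genes were called between CP and CM, so no member call changed. Differences between replicates correlated by 0.0107 to 0.0748 between stages, so the numbers were not taken as pairs. With 0 to 4 reads per library, changes of *Nr0b1* after day 4 were not detectable.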

Other observations

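Genes with known roles in the exit from the naive state were not called higher in the step in which most naive factors fell. Of 12 such genes, 5 fell from ESC to MES and none rose: *Etv5* by 5.98-fold, *Etv4* by 6.27-fold, *Rbpj* by 4.91-fold, *Jarid2* by 5.59-fold and *Tfe3* by 2.51-fold (0 higher at an unadjusted p under 0.05 or with DESeq2). Over all genes tested, 16.0% were called lower and 19.4% higher, so few calls upward would be found in a list of this size. Not all of them promote the exit: *Tfe3* is known to sustain the naive state, and *Flcn* to keep it out of the nucleus. *Tcf7l1*, the repressor of *Esrrb* and *Nanog*, was at 47.5 and 57.0 TPM in ESC and 30.7 to 42.5 TPM at the later stages. None of the 12 was called between MES and CP or between CP and CM by edgeR's test or by DESeq2, while at an unadjusted p under 0.05 edgeR gave 1 higher and 5 lower in the former step and 1 higher and 4 lower in the latter. Of all genes tested, 4.65% were called lower and 10.8% higher in the former step, and 2.65% and 8.17% in the latter.

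Most germ cell genes, a group in which *Prdm14* is known to act, fell after ESC. Of 9 such genes 7 fell from ESC to MES and none rose in edgeR's test (0 with DESeq2), beside 16.0% and 19.4% of all genes tested. *Dazl* went from 23.5 and 25.6 TPM to 0.110 and 0 TPM. The other 2 were higher in MES at an adjusted p under 0.05 but under the fold threshold, *Prdm1* by 1.90-fold (adjusted p = 0.00242) and *Kit* by 1.26-fold (adjusted p = 0.0086). The sum of the 9 was 190 to 192 TPM in ESC, 81.5 to 88.4 TPM in MES, 60.2 to 64.5 TPM in CP and 91.6 to 114 TPM in CM. From CP to CM *Tfap2c*, which is also a factor of surface ectoderm and trophoblast, rose 6.83-fold (2.77 ± 0.29 SE, adjusted p = 0.000311), *Ddx4* fell 2.10-fold, and *Dazl* remained at 1 read in each CM library.

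Blood genes changed with the stage, but not all in the same way. The sum of 10 markers was 4.60 to 4.65 TPM in ESC, 290 to 469 TPM in MES, 4981 to 5014 TPM in CP and 133 to 149 TPM in CM. From MES to CP 6 rose, *Tal1* fell 2.11-fold, and *Gata1* (-0.21), *Klf1* (0.42) and *Runx1* (-0.33) were not called. In that step 10.8% of all genes tested were called higher and 4.65% lower. From CP to CM 8 of the blood genes fell and 1 rose (*Ptprc*, the pan-leukocyte marker, 6.30-fold), beside 2.65% and 8.17% of all genes. Of 8 neural markers 6 were tested, and from CP to CM 1 rose (*Map2*) and 1 fell (*Tubb3*). Of 12 cardiac muscle markers 3 rose (*Pln*, *Nppa* and *Tnni3*) and 2 fell (*Myh7* and *Ttn*) in that step.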
